A study of Mus musculus with 12 samples.

Results

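The genes of the cytosolic ribosomal proteins were described in whole lung and in extracellular vesicles of mice whose labels name a mutant or a wild-type genotype. The members were chosen by gene symbol: Rpl or Rps followed by a number and at most 1 letter and 1 further digit, plus Rplp0, Rplp1, Rplp2 and Rpsa, without the pseudogenes that carry a -ps ending. This gave 83 of the 21950 genes in the lung table and 80 of the 8096 genes in the vesicle table. Rpl10l, Rpl39l and Rpl3l were not listed in the vesicle table. Rpl3l is a muscle paralogue of Rpl3, and Rpl10l and Rpl39l are paralogues known from testis. In lung, Rpl3l stood between 0.272 and 0.606 RPKM (a read count divided by exon length and by the library's total of reads in genes), Rpl39l between 0 and 0.144 RPKM and Rpl10l between 0 and 0.0218 RPKM. These 3 did not reach 1 RPKM in 2 libraries, so that 80 members were tested in each table.

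The cytosolic ribosome consists of ribosomal RNA and a large and a small subunit, each with a set of proteins present in nearly every growing cell. The mRNAs of these proteins are among the most abundant in a cell and start with a C followed by a run of pyrimidines, the terminal oligopyrimidine (TOP) motif. Through this motif the kinase complex mTORC1 and the RNA-binding protein Larp1 control their translation and stability as a group. Their mRNAs are also often found in extracellular vesicles, small membrane-bound bodies shed by cells.

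The study held 12 libraries in 4 groups: 2 mutant-labelled and 4 wild-type libraries of whole lung, and 2 mutant-labelled and 4 wild-type libraries of vesicles. All came from adult mice of strain C57BL/6, and vesicles were taken from the medium of lung mesenchymal cells after 48 hours of culture. Per the sample labels the mutants were ColcreER; Tbx4flox/flox, in which a Cre recombinase that tamoxifen switches on, under a Col driver, would delete Tbx4, which encodes a T-box factor active in the mesenchyme of the lung. The design text of the series instead gives Tbx4creER with Ghrflox/flox, so the floxed gene would be the growth hormone receptor, and the libraries are called mutant-labelled here. The sources used here give neither a tamoxifen dose nor the number of mice behind a library, and nothing states that replicates came from separate mice or cultures. The p-values therefore measure only the spread between these libraries. A driver active in mesenchyme would alter a part of the cells of a whole lung. In such bulk samples fewer cells of a type and less RNA per cell cannot be told apart.

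Tbx4 stood at 20.9 and 36.8 RPKM in the lungs labelled mutant, against 29.7, 26.1, 29.0 and 30.1 RPKM in the wild-type lungs, and Ghr at 9.84 and 12.9 RPKM against 13.4, 12.7, 11.9 and 12.9 RPKM. In vesicles Ghr stood at 13.1 and 11.2 RPKM in the mutant-labelled libraries, below the 21.3, 19.8, 23.6 and 25.1 RPKM of the wild-type libraries, and Tbx4 was not listed. Whether the reads lie in a deleted exon cannot be seen in such gene totals. The lungs carried the alveolar marker Sftpc at 8967 to 13900 RPKM, and the vesicles 10 of 11 listed lung mesenchyme markers, which summed to 692 and 1228 RPKM in mutant-labelled vesicles, against 950 to 1445 RPKM in wild-type vesicles. Of 14 macrophage markers 8 were listed in vesicles, and their sum was above that of the mesenchyme markers in 4 of the 6 libraries. That rested on Lyz2, at 4369 and 3191 RPKM in mutant-labelled vesicles, against 140, 2415, 1977 and 20.6 RPKM in wild-type vesicles. Of 14 neutrophil markers 2 were listed there, and no endothelial, B cell or T cell marker. Lung libraries held 42.7 to 44.8 M (mega) reads in genes, the mutant-labelled vesicle libraries 1.75 M and 1.68 M, and vesicle libraries of wild type 4.20 to 5.41 M. The Y-linked gene Ddx3y stood at 20.6 and 19.9 RPKM in wild-type lungs 1 and 2 and at most 0.0369 RPKM in the other lungs, and likewise at 24.4 and 10.9 RPKM in wild-type vesicles 1 and 2 and 0 in the other vesicle libraries.

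Promoter sequence from RefSeq (mouse build GRCm38.p6) was at hand for 63 of the 83 members. It runs from 250 bases before to 50 bases after a gene's annotated start, and the first start listed was used for counts. A run of at least 8 C or T letters, read on the sense strand within 40 bases before to 20 after the start, was present in 50.8% of these members, against 23.0% of the 10117 genes tested in lung with a sequence. The sense-strand letters CTTTCC or CTTTTC, which such a run can contain, were found in the 300 bases of 50.8% of members and 22.7% of those genes. The letters CCGGAAG, the core bound by ETS and GABP factors, stood on either strand in 39.7% of members and 17.2% of genes. AAGATGGC, found in sites of YY1, stood on either strand in 7.94% and 4.42%, and the sense-strand TATAAA in 9.52% and 4.81%. The 11 sequences shown belong to members on which the results turn: 6 with a raised place in vesicles (Rpl10a, Rpl31, Rpl15, Rpl10, Rpl41, Rpl4), 2 with a lowered one (Rps21, Rpl26), the member with the smallest p in lung (Rpl18), Rpl14, which stood far apart in a single vesicle library, and Rps6, the substrate of the S6 kinases. Each runs 5′ to 3′ from 40 bases before to 20 after the first listed start, with its longest run of C or T in capitals.
Rpl10a, chr17:28328431-28328490, plus strand: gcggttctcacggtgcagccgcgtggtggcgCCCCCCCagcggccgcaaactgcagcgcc
Rpl10, chrX:74270776-74270835, plus strand: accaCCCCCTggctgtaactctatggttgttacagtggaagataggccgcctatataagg
Rpl41, chr10:128549149-128549208, minus strand: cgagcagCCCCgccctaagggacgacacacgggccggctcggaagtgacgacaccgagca
Rpl31, chr1:39367811-39367870, plus strand: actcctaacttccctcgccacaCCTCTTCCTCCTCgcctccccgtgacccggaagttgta
Rpl15, chr14:18270967-18271026, minus strand: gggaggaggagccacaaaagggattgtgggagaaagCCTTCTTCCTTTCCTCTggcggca
Rpl4, chr9:64173347-64173406, plus strand: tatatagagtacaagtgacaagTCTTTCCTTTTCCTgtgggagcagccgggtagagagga
Rps21, chr2:180257339-180257398, plus strand: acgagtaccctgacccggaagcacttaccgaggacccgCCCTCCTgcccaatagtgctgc
Rpl26, chr11:68901526-68901585, plus strand: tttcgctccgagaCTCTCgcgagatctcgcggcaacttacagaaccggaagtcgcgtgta
Rpl18, chr7:45718031-45718090, plus strand: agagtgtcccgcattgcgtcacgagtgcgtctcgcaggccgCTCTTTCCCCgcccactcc
Rpl14, chr9:120571477-120571536, plus strand: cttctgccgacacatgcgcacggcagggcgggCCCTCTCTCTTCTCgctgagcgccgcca
Rps6, chr4:86857348-86857407, minus strand: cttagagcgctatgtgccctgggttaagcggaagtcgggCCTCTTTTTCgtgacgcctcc
The run was 17 letters long in Rpl15, 14 in Rpl4 and Rpl14, 13 in Rpl31, 10 in Rpl18 and Rps6, 7 in Rpl10a and Rps21, 6 in Rpl10, 5 in Rpl26 and 4 in Rpl41. Of the members more than 1 log2 unit higher in wild-type vesicles than in lung, 11 had a promoter sequence, with runs of 4 to 17 letters and a median of 9, and the 3 more than 1 unit lower had runs of 5 to 7. Over 60 members the Spearman correlation of run length with that difference was 0.13. At a second listed start the run was 10 letters long in Rps21 and 5 in Rpl10a, so these run lengths depend on the start used. A match is a description of these letters, and the annotated start can lie beside the one in use.

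Within wild-type lungs the 80 tested members spanned a 45.3-fold range of mean RPKM around a median of 252.5. Among the highest were Rplp1 at 860 ± 14.3 RPKM (SD, n = 4), Rps3a1 at 658 ± 27.2, Rps12 at 644 ± 18.6 and Rps15 at 580 ± 22.6 RPKM. Rplp1 lay above the others by more than their SD, whereas Rps3a1 and Rps12 lay within 1 SD of each other. Lowest were Rpl7l1 at 19.0 ± 0.882, Rpl22l1 at 25.2 ± 1.09, Rps15a at 32.0 ± 1.60, Rps27l at 37.8 ± 0.921 and Rpl22 at 68.1 ± 3.86 RPKM. Of these 5, Rpl7l1, Rpl22l1 and Rps27l are paralogues that share sequence with Rpl7, Rpl22 and Rps27. A level per kilobase depends on the exon length in use: lengths worked out from the values ran from 404 to 6139 bases with a median of 1387, and the longest was that of Rps15a. Across 78 members the Spearman correlation of wild-type lung RPKM with that length was -0.65, a description of genes that share libraries and annotation.

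The order of levels in vesicles was another one. The 4 highest members of wild-type vesicles were Rpl10a at 4968 ± 1533 RPKM (SD, n = 4), Rpl31 at 3057 ± 564, Rpl4 at 2754 ± 862 and Rpl10 at 2117 ± 653 RPKM. Rpl10a encodes the protein of the L1 stalk, where used tRNA leaves the ribosome, Rpl31 and Rpl4 proteins at the exit and in the wall of the peptide tunnel, and Rpl10 a protein that joins late, near the peptidyl transferase centre. The lowest were Rpl7l1 at 4.15 ± 3.44, Rpl35a at 94.97 ± 44.7, Rpl22l1 at 97.8 ± 35.2, Rps27l at 98.95 ± 71.8 and Rps15a at 131 ± 50.9 RPKM. Apart from Rpl7l1, neighbours in this order overlapped within their SD. The coefficient of variation over the 4 wild-type libraries had a median of 35.2% in vesicles and 4.29% in lung over the members.

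In whole lung, ribosomal protein transcripts stood slightly higher in the mutant-labelled libraries than in wild type, across both subunits and without a gene that passed the test. Differences are on the log2(RPKM + 1) scale. Each of the 80 tested members had a log2 difference above 0, where 55.7% of all 13701 genes tested did. The median difference was 0.11, against 0.01 over all genes, and ran from 0.00 for Rpl22l1 to 0.20 for Rpl10a. Both mutant-labelled libraries lay above all 4 wild-type libraries in 59 members, where the background was 7.5%, and below all of them in 0 members, with a background of 4.12%. limma called 0 members and 0 genes in all at an adjusted p below 0.05 (background 0.0%), and the smallest adjusted p of a member was 0.994. At an unadjusted p below 0.05, 3 members were higher, against 2.54% of genes, and 0 were lower, against 1.21%. A count-based fit with limma-voom called 0 genes as well.

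The 3 were Rpl18, Rps20 and Rps13. Rpl18, a protein of the large subunit, stood at 96.1 and 86.8 RPKM in the lungs labelled mutant, against 80.96, 78.7, 81.8 and 79.98 RPKM in the wild-type lungs. The groups did not overlap, and mutant-labelled lung 1 was the highest (log2 difference 0.18, SE 0.07, limma adjusted p = 0.994). Rps20, of the small subunit head, stood at 96.7 and 96.6 RPKM in the lungs labelled mutant, against 89.7, 83.1, 87.9 and 85.9 RPKM in wild-type lungs (log2 difference 0.16, SE 0.06, limma adjusted p = 0.994). Here the mutant-labelled lungs lay closer to each other than the wild-type lungs did. Rps13 stood at 397 and 387 RPKM in the lungs labelled mutant, against 363, 342, 353 and 342 RPKM in wild-type lungs (log2 difference 0.16, SE 0.07, limma adjusted p = 0.994). The largest difference was that of Rpl10a, at 169 and 159 RPKM in the lungs labelled mutant, against 153, 125, 140 and 154 RPKM in wild-type lungs. Its groups also stood apart, by a gap smaller than the spread within wild type. The least was that of Rpl22l1, the paralogue of Rpl22, at 26.7 and 23.8 RPKM in the lungs labelled mutant, against 25.1, 25.01, 24.0 and 26.6 RPKM in wild-type lungs. Its groups overlapped, with a 95% interval of the log2 difference of -0.17 to 0.18.

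**Figure D1:**
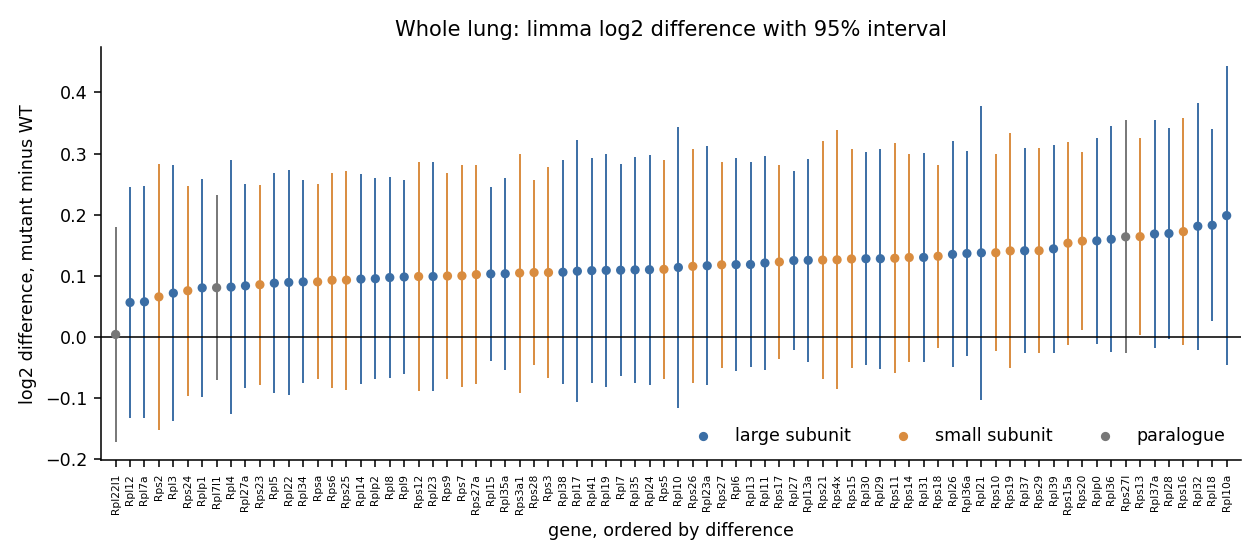
Each point is the limma log2 difference (mutant-labelled minus wild type) of 1 of 78 members drawn (of 80 tested) in whole lung, with its 95% interval as a line, ordered from Rpl22l1 to Rpl10a and coloured by subunit, with paralogues in grey. All points lie between 0.00 and 0.20, and the intervals of all but 3 members (Rpl18, Rps20 and Rps13) include 0.

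The shift differed little by subunit or role. The 46 large subunit members without paralogues had a median log2 difference of 0.11 and the 31 of the small subunit 0.12. Among the stalk proteins that recruit elongation factors, Rplp0 stood at 360 and 353 RPKM in the lungs labelled mutant, against 310, 309, 335 and 323 RPKM in wild-type lungs (log2 difference 0.16). Its partners Rplp1 and Rplp2 had differences of 0.08 and 0.10, and Rpl12 at the base of the stalk 0.06. Rpl5 and Rpl11, which bind the smallest rRNA of the large subunit and Mdm2 when free, had 0.09 and 0.12. The 8 members at or near the exit of the nascent chain (Rpl17, Rpl19, Rpl22, Rpl23a, Rpl26, Rpl31, Rpl35 and Rpl39) ran from 0.09 to 0.14. In the small subunit, Rps2 and Rps3 at the mRNA entry had 0.07 and 0.11. Rps14, Rps26, Rps28 and Rpsa at the mRNA exit and platform ran from 0.09 to 0.13, and Rps15, Rps16, Rps18 and Rps23 around the decoding and tRNA sites from 0.09 to 0.17. Rps6, whose phosphorylation reports S6 kinase activity, had 0.09, and Rps27a, made as a fusion with ubiquitin, 0.10. The paralogues Rpl7l1 and Rps27l had 0.08 and 0.16. Of members without a listed role, Rpl32 had 0.18, Rpl28 and Rpl37a 0.17 each, Rps15a 0.15 and Rpl7a 0.06.

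The libraries of a group were not equal. Measured as the median over the 80 members of log2(RPKM + 1) minus the wild-type mean, mutant-labelled lungs 1 and 2 stood at 0.15 and 0.08 and wild-type lungs 1 to 4 at 0.02, -0.08, 0.04 and 0.02. Mutant-labelled lung 1 held the highest value of 68 members and wild-type lung 2 the lowest of 72. Leaving out mutant-labelled lung 1 gave a median difference of 0.08, leaving out the other mutant-labelled lung 0.15, and leaving out wild-type lung 2 gave 0.08. With log2(Ddx3y + 1) as a covariate it was 0.08, with 77 members above 0, against 53.59% of all genes. The number of members whose groups did not overlap depended on the scale: it was 39 after median-ratio scaling, against 5.8% of all genes on that scale, and 6 when each library was scaled to the same summed RPKM. The 6 are 7.5% of the members, against 3.23% of all genes on that scale. There the median difference was 0.08 and 79 members stood above 0, against 45.97% of all genes. The summed RPKM was 452364 and 387223 in mutant-labelled lungs 1 and 2, against 402682 to 418887 in wild-type lungs, and the club cell gene Scgb1a1 alone stood at 80770 and 43650 RPKM in the lungs labelled mutant, against 43600 to 61260 RPKM in wild-type lungs.

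**Figure D2:**
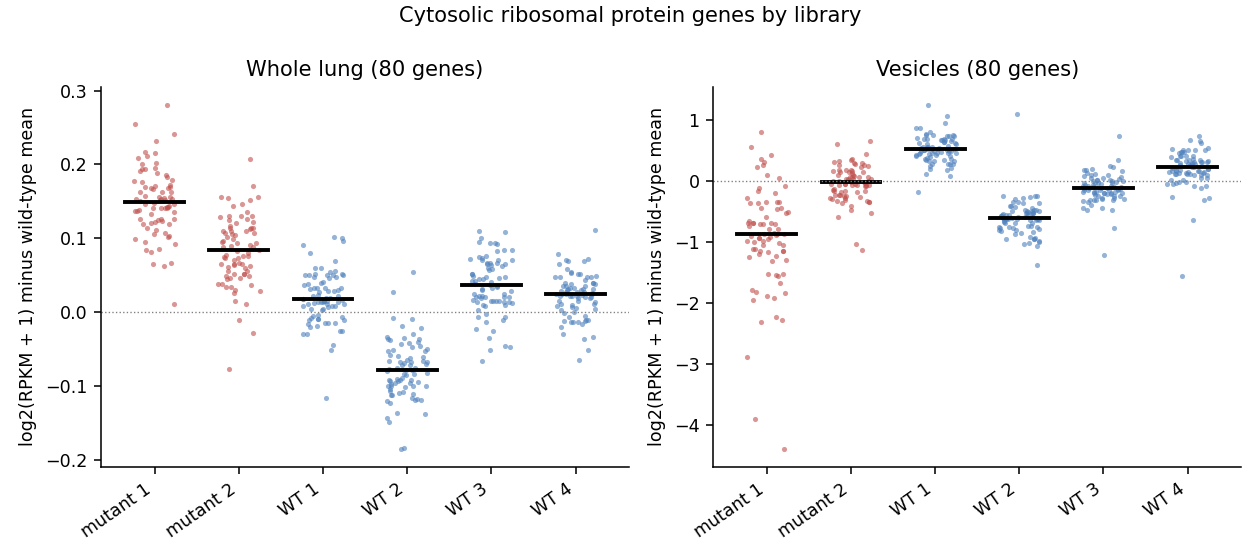
Each point is 1 of 80 members in 1 library, as log2(RPKM + 1) minus the mean of the 4 wild-type libraries of its table, with mutant-labelled libraries in red left of wild-type libraries in blue and a bar at the median. In lung the medians of the mutant-labelled libraries (0.15 and 0.08) lie above those of wild type (-0.08 to 0.04), and in vesicles mutant-labelled library 1 (-0.87) lies below the others with a wide spread.

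Cytosolic ribosome genes outside the naming pattern stood beside the members. Fau, which encodes a fusion of a ubiquitin-like protein with a small subunit protein, stood at 293 and 295 RPKM in the lungs labelled mutant, against 280, 254, 276 and 264 RPKM in wild-type lungs. Gnb2l1 (Rack1, the scaffold on the small subunit) had a log2 difference of 0.10 and Rpl36al, a paralogue of Rpl36a, 0.09. The 16 other genes of the TOP class, such as the elongation factors Eef1a1 and Eef2, had a median of 0.06 with 14 above 0, and Eef2 stood at 0.02. The 77 mitochondrial ribosomal protein genes, which serve the separate ribosome of mitochondria, had a median of 0.03 with 59 above 0. The 26 ribosome biogenesis genes had a median of 0.01 with 17 above 0, among them the nucleolar methyltransferase Fbl at 0.15. Of 15 regulators of TOP mRNAs the median was 0.01, and Larp1 and Mtor both stood at 0.01. Myc, which drives transcription of ribosome genes, stood at 3.21 and 3.25 RPKM in the lungs labelled mutant, against 2.65, 2.53, 2.91 and 2.33 RPKM in wild-type lungs (log2 difference 0.23, SE 0.08, limma adjusted p = 0.994). limma called 0 genes of these lists.

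Markers of other cell types were set beside these levels, and limma called 0 of them. The 14 neutrophil markers summed to 646 and 1009 RPKM in the lungs labelled mutant, against 156 to 429 RPKM in wild-type lungs, with 13 of 13 tested above 0. Macrophage markers summed to 3946 and 2273 RPKM, against 2128 to 4130 RPKM, lung mesenchyme markers to 528 and 653 RPKM, against 537 to 597 RPKM, and endothelial markers to 604 and 888 RPKM, against 686 to 793 RPKM. All 13 mitochondrial DNA genes had a log2 difference below 0, with a median of -0.19, and so did all 8 tested B cell markers, with a median of -0.23. The B cell markers summed to 70.8 and 163 RPKM in the lungs labelled mutant, against 114 to 169 RPKM in wild-type lungs. Only mutant-labelled lung 1 was thus low in them, and the groups overlapped. Mitochondrial DNA genes made up 14.7% and 12.8% of the summed RPKM in mutant-labelled lungs, against 18.3%, 15.8%, 13.3% and 16.6% in wild-type lungs, and the groups overlapped. The order of the 2 mutant-labelled lungs in the neutrophil sum was opposite to that in the median of the members. The part of these genes and cells in the ribosomal protein levels was not tested.

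In vesicles, ribosomal protein transcripts stood lower on balance in the mutant-labelled libraries than in wild type, but the difference came with 1 of the 2 libraries and no gene passed the test. The median log2 difference of the 80 members was -0.42, against -0.14 over the 7615 genes tested, and 9 members lay above 0, against 46.0% of genes. Both mutant-labelled libraries lay below all wild-type libraries in 2 members, with a background of 9.94%, and above all of them in 0, with a background of 9.88%. limma called 0 members and 0 genes at an adjusted p below 0.05 (background 0.0%), with 0.470 as the smallest adjusted p of a member, and limma-voom on recovered reads called 1 gene, which was no member. At an unadjusted p below 0.05, 4 members were lower, against 5.03% of genes, and 0 were higher, against 5.23%. The median difference was -0.02 without mutant-labelled vesicle library 1, where 37 members lay above 0, against 53.79% of all genes. It was -0.87 without mutant-labelled vesicle library 2. In that last fit, with a lone mutant-labelled library assumed to vary like the others, limma called 377 of 7318 genes, 5.15%, and 6 members, 7.5% of the 80 (Rpl14, Rpl36, Rpl7a, Rps14, Rps21 and Rps27l). The all-gene median moved as well, to 0.10 without library 1 and -0.63 without library 2. Leaving out wild-type vesicle library 1 or 2 gave a median of -0.28 or -0.68 and 16 or 3 members above 0. Of all genes, 46.7% or 45.0% then lay above 0.

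The 4 members were Rps27l, Rpl36, Rps21 and Rpl7a. Rps27l, a p53-induced paralogue of Rps27, stood at 4.21 and 37.3 RPKM in mutant-labelled vesicles, against 185, 56.8, 129 and 25.4 RPKM in wild-type vesicles. These levels rest on 6 and 51 reads in mutant-labelled vesicles, against 112 to 676 reads in wild-type vesicles. The groups overlapped, since wild-type library 4 lay below mutant-labelled library 2 (log2 difference -2.46, SE 0.91, limma adjusted p = 0.470). Rpl36 stood at 92.2 and 322 RPKM in mutant-labelled vesicles, against 670, 328, 541 and 388 RPKM in wild-type vesicles (log2 difference -1.42, SE 0.54, limma adjusted p = 0.482). Its groups did not overlap, but mutant-labelled library 2 and wild-type library 2 were nearly equal. Rpl37a, the other member without overlap, stood at 543 and 828 RPKM in mutant-labelled vesicles, against 1754, 866, 1134 and 1382 RPKM in wild-type vesicles (log2 difference -0.89, SE 0.41, limma adjusted p = 0.485). Rps21 stood at 13.9 and 321 RPKM in mutant-labelled vesicles, against 278, 246, 361 and 391 RPKM in wild-type vesicles. Only library 1 was low, and it held 16 reads of Rps21, where library 2 at a like depth held 354 (log2 difference -2.18, SE 0.88, limma adjusted p = 0.482). Rpl7a stood at 248 and 1159 RPKM in mutant-labelled vesicles, against 1453, 978, 1324 and 1112 RPKM in wild-type vesicles (log2 difference -1.16, SE 0.53, limma adjusted p = 0.485). Among the highest positive differences were those of Rpl8 (0.49), Rps15 (0.25) and Rps13 (0.21), with overlapping groups in each.

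By role, the 4 stalk members had a median log2 difference of -0.28, Rpl5 and Rpl11 -0.52 and 0.03, and the 8 members at the nascent chain exit -0.53. Rps2 and Rps3 stood at -0.25 each, and the 4 members at the mRNA exit and platform had a median of -0.59, as low as -0.90 for Rps14. Those around the decoding and tRNA sites had a median of -0.54, with Rps15 above 0. Rps6 stood at 704 and 1728 RPKM in mutant-labelled vesicles, against 2296, 1218, 1428 and 2326 RPKM in wild-type vesicles, a difference of -0.66 with overlapping groups. Rps27a stood at 82.2 and 238 RPKM in mutant-labelled vesicles, against 431, 216, 320 and 288 RPKM in wild-type vesicles, a difference of -1.12. Rpl27, of the large subunit, had -1.11, and the paralogues Rpl7l1 and Rpl22l1 had -1.46 and -0.95. The 46 large and 31 small subunit members had medians of -0.44 and -0.39. The 16 other TOP-class genes had a median of -0.51 with 1 above 0, and the 61 mitochondrial ribosomal protein genes -0.61 with 18 above 0. Eef1a1 stood at 3885 and 6310 RPKM in mutant-labelled vesicles, against 9244, 5468, 6078 and 8240 RPKM in wild-type vesicles, again low in library 1.

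Mutant-labelled vesicle library 1 differed from the other 5 in the pattern of the members as well as in their sum. The Spearman correlation of its 80 member levels with those of the other vesicle libraries was 0.82 to 0.84, while the other 5 correlated at 0.95 to 0.97 among themselves and the 6 lungs at above 0.99. Set over the median member of its own library, it lay above all the other 5 in 20 members and below them in 36. The shares over all genes on that scale were not computed. On the deposited scale, against the wild-type libraries alone, it lay above all of them in 26.7% of all genes and below in 38.6%. For mutant-labelled library 2 these shares were 25.2% above and 17.2% below. The share above was thus alike in the 2 libraries. The larger share below in library 1 was seen over all genes, not in the members alone. The SD over members of the log2 gap of library 1 to the others was 0.88, where it was 0.30 to 0.46 for the other vesicle libraries. Farthest below the others stood Rps21, Rpl14, Rps27l and Rpl7a. Rpl14, of the large subunit, stood at 65.0 RPKM in this library, against 542 RPKM in mutant-labelled library 2 and 328 to 656 RPKM in wild-type vesicles. Among those above them stood Rps7 and Rps15. Rps15 stood at 1263 RPKM in this library, against 816 RPKM in mutant-labelled library 2 and 507 to 1037 RPKM in wild-type vesicles. Mutant-labelled library 2, with 1.68 M reads the shallower of the pair, lay above the other 5 in 10 members and below them in 9. Wild-type libraries 1 to 4 lay above the other 5 in 16, 9, 19 and 6 members and below them in 4, 16, 2 and 13. The 20 members above in mutant-labelled library 1 were thus close to the 19 of wild-type library 3. Its 36 below were more than in any other vesicle library.

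**Figure D3:**
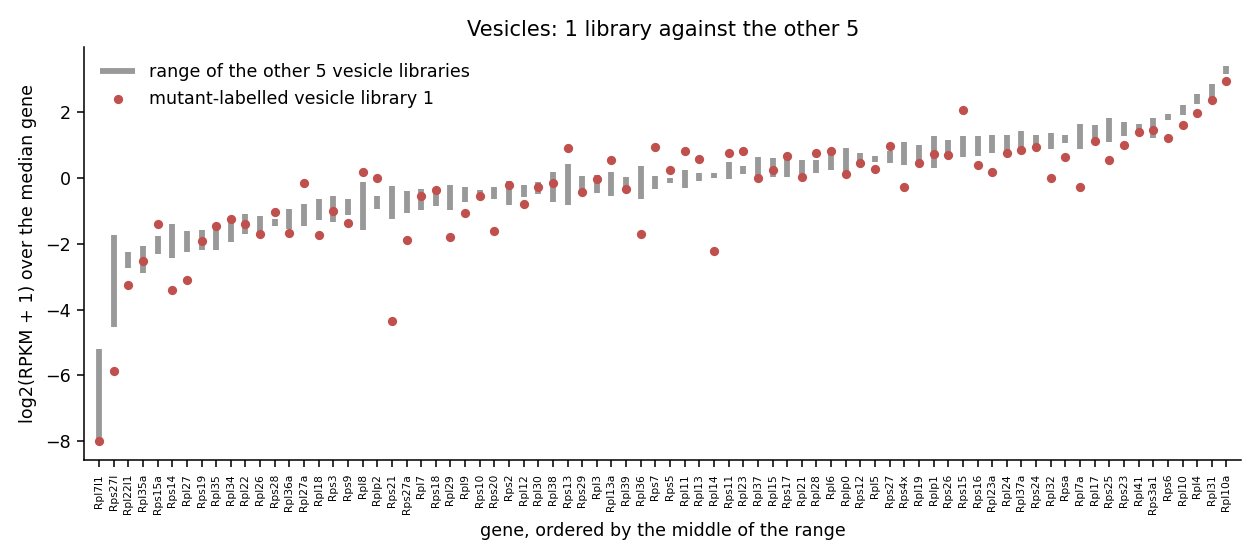
For 78 of the 80 members, the grey bar spans the other 5 vesicle libraries and the red point is mutant-labelled vesicle library 1, both as log2(RPKM + 1) over the median member of the library. The point lies outside the bar in most members, with Rps21 and Rpl14 farthest below it and Rps7 and Rps15 among those above.

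The share of a library taken by the members varied more in vesicles than in lung. Members made up 8.26% and 14.1% of the summed RPKM in mutant-labelled vesicles, against 18.1%, 8.11%, 11.9% and 15.9% in wild-type vesicles. In the same libraries the 13 genes of mitochondrial DNA made up 22.7% and 11.6%, against 11.8%, 30.7%, 20.8% and 11.2%. The 3 libraries with the largest mitochondrial share were those with the smallest share of members, in both genotypes. Without the mitochondrial genes in the sum, members made up 10.7% and 16.0% in mutant-labelled vesicles, against 20.5%, 11.7%, 15.0% and 17.9% in wild-type vesicles. Macrophage markers summed to 4926 and 3478 RPKM in mutant-labelled vesicles, against 141, 2606, 2245 and 31.0 RPKM in wild-type vesicles. Most of each sum was Lyz2. The wild-type libraries with few macrophage transcripts, 1 and 4, were those with the larger member share among wild-type libraries. The part of these markers in the member levels was not tested. In lung the members made up 5.18% and 5.79% of the summed RPKM in mutant-labelled libraries, against 5.24%, 4.92%, 5.39% and 5.13% in wild type, so that the groups overlapped. Of the recovered reads, they held 2.98% and 2.86% in mutant-labelled lungs, against 2.73%, 2.55%, 2.78% and 2.75% in wild-type lungs.

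**Figure D4:**
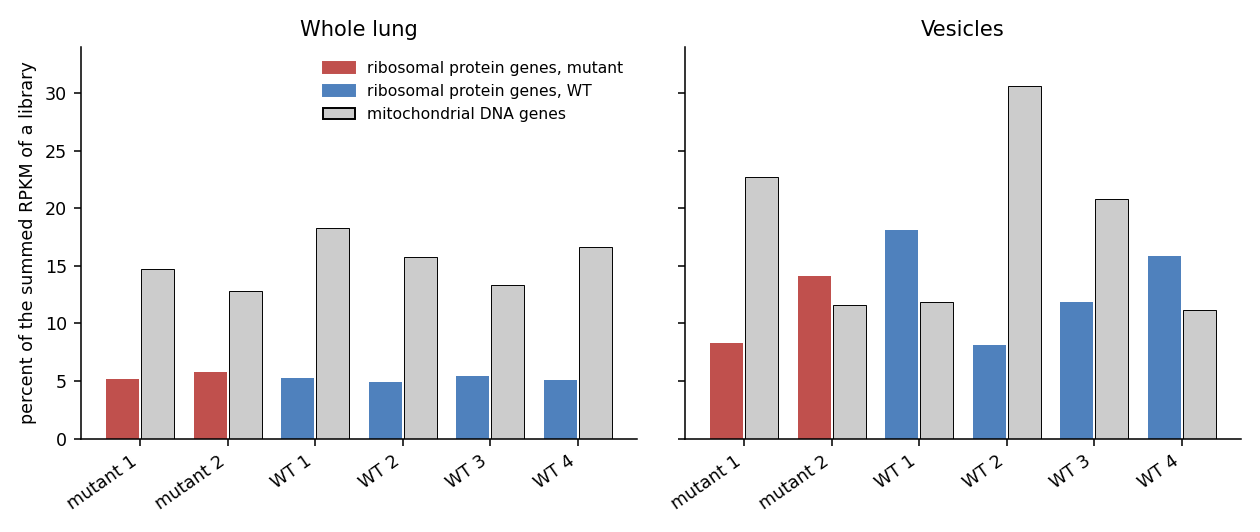
Bars give the percent of the summed RPKM of each library held by the ribosomal protein genes (red for mutant-labelled, blue for wild type) and by the genes of mitochondrial DNA (grey). In lung the members hold 4.92% to 5.79%, and in vesicles 8.11% to 18.1%, lowest where the grey bar is highest.

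Beside whole lung, vesicles held ribosomal protein transcripts at an equally high rank, but not in the same proportions. The tables were normalized separately, so ranks and levels within a library are set side by side without a test. Among the 8096 genes listed in both tables, the median member stood at percentile 98.6 in wild-type vesicles and 98.6 in wild-type lungs, and 44 members stood higher and 36 lower in vesicles. The median difference in percentile was 0.21 in wild type and -0.086 in mutant-labelled libraries. The 61 mitochondrial ribosomal protein genes stood at a median percentile of 45.6 in vesicles and 49.2 in lung, and the 16 other TOP-class genes at 98.7 and 95.4. The largest gains of percentile in wild type were those of Rpl22l1 (17.4), Rps15a (13.2), Rps27l (6.41), Rpl15 (5.10), Rpl22 (3.85) and Rpl39 (3.74). The gain of Rps27l was about as large as the SD of its percentile over the wild-type vesicle libraries (6.34). In mutant-labelled libraries the difference of Rps27l was -17.96. The largest losses were those of Rpl7l1 (-26.8), Rps14 (-3.41), Rpl8 (-1.998), Rps21 (-1.52), Rpl26 (-1.49) and Rpl35a (-1.38). Since most members sit at the top of the list, percentiles leave little room for change there, and levels over the median member of a library show the spread better.

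On that scale, 15 members stood more than 1 log2 unit higher in wild-type vesicles than in wild-type lungs and 7 more than 1 unit lower. Rpl10a, of the L1 stalk, stood at 6625, 3420, 3937 and 5890 RPKM in wild-type vesicles, against 153, 125, 140 and 154 RPKM in wild-type lungs. Over the median member it was 3.29 ± 0.08 log2 units above in vesicles and -0.82 ± 0.09 in lung (SD, n = 4 each), a difference of 4.11 or 17.3-fold. Rpl31, at the tunnel exit, differed by 2.76, Rpl15 by 2.002, Rpl10 by 1.83, Rpl41 by 1.56 and Rpl4 by 1.54. Rpl31 stood at 3410, 2364, 2845 and 3609 RPKM in wild-type vesicles, against 238, 216, 235 and 231 RPKM in wild-type lungs. Rpl15, of the large subunit, stood at 771, 359, 642 and 615 RPKM in wild-type vesicles, against 72.6, 72.0, 76.2 and 75.1 RPKM in wild-type lungs. The 15 comprised 12 large and 3 small subunit members, the 3 being Rps6, Rps20 and Rps23.

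Among those lower in vesicles stood Rpl7l1 (-3.68), Rps14 (-2.26), Rpl8 (-1.98), Rps21 (-1.71), Rpl26 (-1.11) and Rplp1 (-1.05). Rpl7l1 rests on few reads in some vesicle libraries, at 6.08, 7.98, 0.822 and 1.70 RPKM in wild-type vesicles, against 19.8, 19.8, 18.4 and 18.1 RPKM in wild-type lungs, with 9 reads in wild-type vesicle library 3. Rps14, of the platform where mRNA leaves, stood at 213, 97.7, 146 and 111 RPKM in wild-type vesicles, against 343, 320, 341 and 338 RPKM in wild-type lungs. Rpl8, near the peptidyl transferase centre, stood at 543, 108, 262 and 396 RPKM in wild-type vesicles, against 574, 551, 575 and 578 RPKM in wild-type lungs. Members of one site parted ways: of those at the nascent chain exit Rpl31 (2.76) and Rpl39 (1.46) stood higher in vesicles, while Rpl26 (-1.11) and Rpl35 (-0.37) stood lower. Of the stalk, Rplp1 stood lower (-1.05), Rplp0 and Rplp2 near their place in lung (-0.05 and -0.22) and Rpl12 higher (0.295). Rpl5 and Rpl11 both stood higher (1.25 and 0.72).

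**Figure D5:**
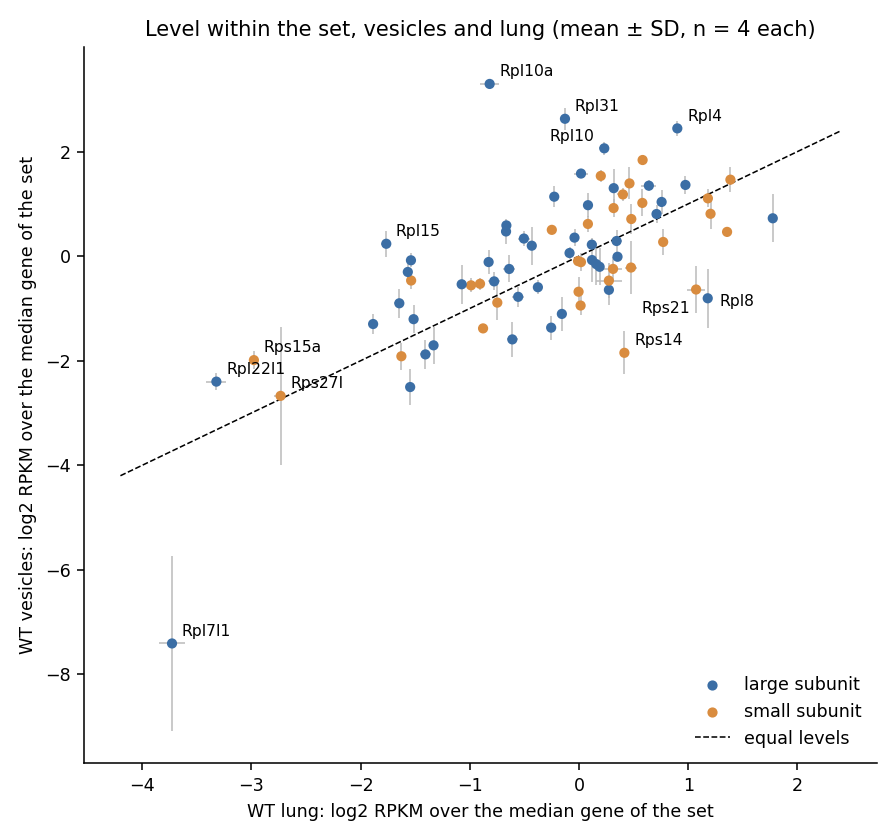
Each point is 1 of 78 members drawn (of 80), placed by its log2 RPKM over the median member in wild-type lung (horizontal) and wild-type vesicles (vertical), as mean ± SD of 4 libraries each, with a dashed line for equal places. Rpl10a (4.11 above the line), Rpl31 and Rpl15 lie farthest above it, and Rpl7l1, Rps14 and Rpl8 farthest below.

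All 4 wild-type vesicle libraries lay above all 4 wild-type lungs in 38 members on this scale and below them in 23. The same shares over all genes were not computed, so these counts cannot be read as particular to the members. Of the 38, 32 also stood apart upward between the mutant-labelled vesicles and lungs, which is 84.2% of them and 91.4% of the 35 found there. Of the 23, 20 did so downward, which is 87.0% of them, and these are 20 of the 25 found in mutant-labelled libraries. In 0 members did the genotypes stand apart in opposite directions. Across the 80 members, the vesicle minus lung difference in wild type correlated with that of mutant-labelled vesicle library 2 at a Spearman correlation of 0.95 and with that of library 1 at 0.76, the members sharing libraries. The level of the members in wild-type vesicles correlated with that in wild-type lungs at 0.55 to 0.61 over the 16 pairs of libraries. Whole lung and the mesenchymal cells behind the vesicles differ in cell types, and RNA of the cultured cells themselves was not analysed here, so vesicle loading and cell of origin cannot be told apart.

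Copies of these genes in the genome bear on the counts. Of 81 members with a GENCODE M1 transcript, 78 had at least 1 stretch of 50 bases that also occurs elsewhere in build mm9, and in 53 more than 50% of all such stretches did, with a median of 65.1%. Reads from such stretches could be split between gene and copy or dropped, in a way the sources used here do not give, so levels of single members are uncertain. The share copied was 85.3% for Rpl10a, 88.6% for Rpl15, 45.1% for Rpl31 and 17.8% for Rpl4, which stood high in vesicles. It was 41.6% for Rps14, 44.6% for Rps21 and 7.87% for Rpl8, which stood low. Over 78 members its Spearman correlation with the vesicle minus lung difference was 0.12, and with the lung genotype difference -0.004. GC content of the transcript correlated at -0.29 with the vesicle minus lung difference and exon length at 0.19.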

How the data were processed

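Whole lung and vesicle RNA was sequenced on the Illumina HiSeq platform, per the labels. The deposited tables give 1 value per gene and library, read here as RPKM that the authors computed. No header names the unit. At the annotated exon length, 9561 of the 19224 lung genes above 0 gave whole reads, and 3676 of the 8096 vesicle genes. For other genes the shortest length that gave whole reads was taken. With these fitted lengths 99.94% of the genes above 0 in lung and 99.91% of those in vesicles gave whole reads (tolerance 0.02). That share was thus reached in part by fitting. Of 80 members listed in both tables, 78 had the same length worked out from lung as from vesicles. TopHat2, HTSeq and build mm9 come from the submitters' processing notes; the sources used here give no versions, strand setting or treatment of reads with several matches. There were 0 value columns that no sample label matched.

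Within each table, genes reaching 1 RPKM in 2 or more libraries entered the test on log2(RPKM + 1) of the deposited values with limma 3.58.1 (variance trend) in R 4.3.3, 2 mutant-labelled against 4 wild-type libraries, with Benjamini-Hochberg adjustment over all genes tested and a threshold of 0.05. The fit was also run on simulated data, with changes far larger than the lung differences of the members and a fixed spread for all libraries of a table. That run cannot show how the fit handles such small differences or a library that stands apart. limma-voom on recovered reads was added after seeing the data. Intervals are at 95%. Vesicles and lung were set side by side without a test. The 8096 genes listed in both tables served for percentiles, and other levels are log2 RPKM over the median member of a library.

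Members, roles and lists were chosen with earlier results of these data known. Members are named by rule: the smallest p and the extremes of each comparison, the highest and lowest levels, those with a listed role, and the largest shifts between vesicles and lung. The members that exceed 1 log2 unit there, Eef1a1, Eef2, Fbl, Larp1, Mtor and the members far apart in vesicle library 1 were named after their values were seen. Promoters are from RefSeq, GRCm38.p6. A few genes are counted in the totals but are not reported here by name or drawn in gene-by-gene plots.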

Additional observations from a re-analysis of the deposited data

Results flagged for a closer look

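In 33 groups of 4 wild-type libraries examined for a value far from the others (critical ratio 0.829), 2 stood out, where chance gives about 1 in 20. The median member deviation of wild-type lung 2 was -0.08 (-0.0785) on the log2 scale, below the other wild-type lungs at 0.02, 0.04 and 0.02. Rps15, of the small subunit, stood at 506.9 RPKM in wild-type vesicle library 2, below the other wild-type vesicle libraries at 1037, 1019 and 1001 RPKM.

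Rpl36 and Rpl37a stood above all wild-type libraries in both mutant-labelled lungs and below all of them in both mutant-labelled vesicle libraries. In lung 73.8% of the tested members stood above in this way. In vesicles 2.5% of members stood below, against 9.94% of all genes. The vesicle minus lung gap of their log2 differences was -1.58 for Rpl36 and -1.06 for Rpl37a. This gap was not tested, since the tables were normalized separately.

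The ribosomal protein pseudogenes with a -ps ending, which are no members, summed to 1783 and 1677 RPKM in mutant-labelled lungs (mean 1730 RPKM), against 1591, 1556, 1635 and 1600 RPKM in wild-type lungs.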

How the results depend on the processing

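No member was called in lung or vesicles under any alternative fit except in vesicles without mutant-labelled library 2. In lung the filter-free fit called 1 gene. Members with both mutant-labelled lungs above all wild type numbered 39 after median-ratio scaling (5.8% of all genes) and 6 with equal summed RPKM (3.23% of all genes). Those below ranged from 0 to 1 over leave-outs, against 5.36% to 30.7% of all genes. The lung difference in member share ranged from 0.0101 to 0.621 percentage points over leave-outs. The difference of Rpl22l1 was -0.0121 after median-ratio scaling, -0.0249 with equal summed RPKM, -0.0044 with array weights and -0.0017 with the Ddx3y covariate, where that of Rpl12 was -0.0138. Leaving out 1 lung gave -0.0763 to 0.0848 for Rpl22l1, -0.0282 to 0.14 for Rpl7a and -0.0102 to 0.14 for Rps2.

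In vesicles 7 members (8.75%, against 11.1% of all genes) lay below all wild type after median-ratio scaling. With equal summed RPKM it was 0 (against 8.72% of all genes), and 15 members lay above 0, against 49.03% of all genes. limma-voom called 1 vesicle gene. Leave-outs gave 0 to 377 genes (at most 5.15%) and 0 to 6 members called, 3 to 37 members above 0, 0 to 2 above all wild type and 2 to 51 below; the 51 came without mutant-labelled library 2, where 38.6% of all genes lay below. Over all genes the leave-outs gave 40.45% to 53.79% above 0, 11.9% to 26.7% above all wild type and 12.6% to 38.6% below. The median difference of the members ranged from -0.87 to -0.02 and the difference in member share from -5.24 to 0.63 percentage points. They gave -4.40 to 0.0332 for Rps21, -2.88 to 0.16 for Rpl14, -0.0684 to 0.56 for Rps15 and -0.0008 to 0.57 for Rps13. The cause was not tested. With percentiles over all genes of each table, the median vesicle minus lung difference was -0.517 in wild type and -0.849 in mutant-labelled libraries.

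Deviations of same-numbered mutant-labelled and wild-type libraries correlated at -0.481 and 0.049 in lung and -0.048 and -0.118 in vesicles. Deviations of the mutant-labelled libraries from their mean mirror each other, so these values cannot decide whether replicate numbers pair the samples. Pairing of lungs with vesicles by number was not examined. With the replicate block the median difference was 0.15 in lung and -0.36 in vesicles, with 0 members called. Vesicle depth limits members with few reads, such as Rpl7l1.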
